A study of Mus musculus with 8 samples.

Results

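The protein-coding genes of the mitochondrial ribosome were taken as all rows of the deposited table whose symbol is Mrpl (large subunit) or Mrps (small subunit) followed by a number and at most 1 letter. The rule uses no measured value and found 78 of 55487 genes, 49 named for the large subunit and 29 for the small subunit. They were read in 8 RNA libraries from wild-type mouse embryos at the 2-cell stage. In 4 control libraries the embryos had received CasRX (a Cas13 nuclease, which cuts RNA that its guide pairs with), and in 4 knockdown-labelled libraries CasRX aimed at Polq, the gene of DNA polymerase theta, which joins broken DNA ends. Every library came from a pool of 5 embryos, injected at the 1-cell stage 20 hours after hCG (the hormone that triggers ovulation), with RNA taken 10 hours later.

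Mitochondrial ribosomes translate the mRNAs of the mitochondrial genome, which encode subunits of the respiratory chain and of ATP synthase. Their rRNAs are transcribed inside the organelle, whereas every ribosomal protein is encoded in the nucleus, made in the cytosol and imported. The large subunit joins amino acids and holds the exit tunnel, the central protuberance and the stalk that binds translation factors, and the small subunit decodes the mRNA. Early mouse embryos carry mitochondria inherited from the egg and depend on them for ATP from pyruvate.

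Totals were 33311665 to 43748621 expected counts (reads per gene as estimated by RSEM) in the controls. Knockdown-labelled replicates 1, 2 and 3 held 4726159, 8627403 and 8100969 counts and replicate 4 held 33650050, so depth moved with the group except in that library. Polq itself stood at 34.6, 49.7, 40.1 and 32.7 counts per 1000000 (CPM, with library sizes scaled by TMM, a trimmed mean of ratios between libraries) in the controls and at 16.9, 38.9, 29.2 and 41.1 CPM under the knockdown label. The groups overlapped (80.4% of control, 95% interval 47.8% to 135%, 2-sided exact permutation p = 0.343, smallest possible 0.0286), so that the knockdown is known here from the labels only. All 8 markers of the 2-cell stage and all 7 maternal markers passed the filter on low counts. Markers of cumulus cells summed to between 0 and 24.6 CPM per library, with Fshr, Inha, Foxl2, Has2 and Ptx3 at 0 throughout. Tnfaip6 of that list reached 16.2 CPM in control replicate 2 and 10.7 CPM in knockdown-labelled replicate 4. Cyp19a1 reached 5.23 CPM and Star 3.40 CPM. Among sperm markers, Prm2 lay between 0 and 7.34 CPM, and Prm1, Tnp1, Tnp2 and Odf1 were at 0 throughout. Of the blood markers, Hba-a1 lay between 0.0229 and 16.15 CPM, and Hbb-bs was at 0 throughout. In pools of whole embryos, fewer cells and less RNA per cell cannot be told apart.

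All 78 genes had a count in at least 1 library, and 74 passed the filter on low counts, 47 of the large and 27 of the small subunit. The median member stood at 28.7 CPM, above the 8.34 CPM of the median gene among the 13146 tested. Levels of different genes were compared per kilobase of the principal transcript, since longer transcripts give more counts. On that scale the median was 23.5 CPM per kilobase for the large subunit and 12.5 for the small subunit, and 7 of the 10 highest members belonged to the large subunit. The range was wide in both, from 0.186 to 436 CPM per kilobase in the large subunit and from 0.0982 to 222 in the small subunit.

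Mrpl41, a protein of the large subunit with no bacterial counterpart (GRCm38, GENCODE M21, chr2:24974117-24975098, minus strand), headed the order at 436 ± 43.7 CPM per kilobase (SD, n = 8). Mrpl40, of the central protuberance, followed at 317 ± 32.7, Mrpl34 at 296 ± 93.2, Mrpl9 at 283 ± 134 and Mrpl42 at 253 ± 85.2. The step from Mrpl41 to Mrpl40 exceeded both SDs, while neighbours from Mrpl40 to Mrpl42 lay within each other's SD. Mrps14, which sits in the head of the small subunit, was the highest small-subunit member and the sixth of all, at 222 ± 43.4 CPM per kilobase. Next among small-subunit genes were Mrps21 at 126 and Mrps6 at 96.9 CPM per kilobase, both with bacterial counterparts. The choice of length bears on this order, because merging all annotated exons in place of the principal transcript moved Mrpl42 from the fifth to the 17th place and Mrpl33 from the 16th to the 50th.

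**Figure D1:**
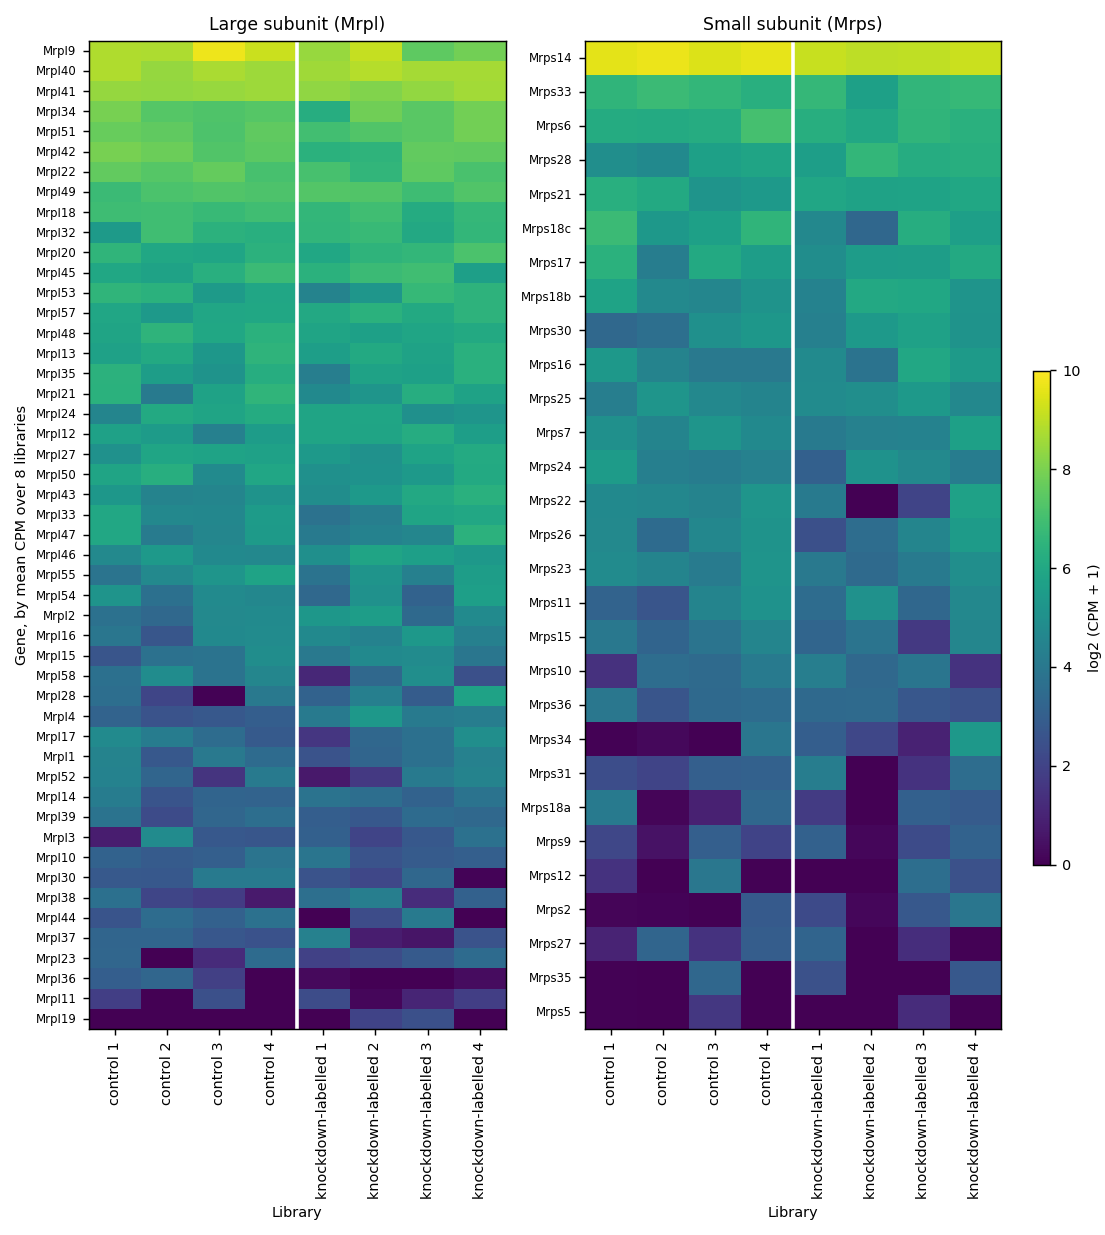
Levels of all 78 genes as log2(CPM + 1), large subunit at the left and small subunit at the right, with 1 row per gene ordered by mean CPM and 1 column per library (controls, then knockdown-labelled). Some rows at the top keep about 1 colour across libraries, as Mrpl41 (276 to 390 CPM) and Mrps14 (518 to 844 CPM) do. Others vary more, as Mrpl9, the top large-subunit row (182 to 855 CPM), and Mrpl34 (74.0 to 248 CPM) do. Some lower rows alternate between 0 and higher levels, as Mrps22 (0 to 51.4 CPM) does.

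Promoter windows of 300 bases (250 before and 50 after the annotated start) were found for 69 members, with 75 promoters in all, in RefSeq for GRCm38.p6. Genes for mitochondrial proteins are known targets of ETS-family factors such as GABPA, of NRF1 and of YY1, so the cores of their motifs were searched on both strands. CCGGAAG, the ETS core, occurred in 26 of the 75 promoters (34.7%), against 8.86% of all 32851 promoters and 17.4% of the 11331 promoters of genes tested here. It was found in 40.7% of small-subunit and 31.2% of large-subunit promoters. GCATGCG, the NRF1 core, reached 10.7% (all 3.58%, tested genes 6.35%), and AAGATGG, the YY1 core, 17.3% (6.34% and 7.42%). TATAAA, the TATA box, was found in 6.67% (13.6% and 8.15%). The median GC content of members' windows was 58.7%, below the 59.7% of the tested genes' windows and above the 52.7% of all windows. These matches describe letters, not binding, and no test was made of the shares.

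The 120 bases before the start are shown for 8 members, chosen to set abundant genes and those with the smallest p beside windows that hold a core. They are written 5′ to 3′ on the strand of the gene, with any ETS or NRF1 core in capitals. Mrpl34, Mrpl22, Mrpl27 and Mrpl43 carried an ETS core, Mrpl43 2 of them, while Mrpl9 and Mrpl22 carried an NRF1 core. The stretches without capitals are those of Mrps14 and Mrpl41, whose 300-base windows held neither core, and of Mrpl57, whose ETS core lies in its window outside the printed bases.
Mrps14 (chr1:160195095-160195214, plus strand): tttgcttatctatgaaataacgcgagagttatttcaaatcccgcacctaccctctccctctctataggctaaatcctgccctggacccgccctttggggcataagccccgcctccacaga
Mrpl41 (chr2:24975099-24975218, minus strand): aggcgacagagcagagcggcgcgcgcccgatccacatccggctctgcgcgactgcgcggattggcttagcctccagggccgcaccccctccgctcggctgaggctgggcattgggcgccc
Mrpl57 (chr14:57826119-57826238, plus strand): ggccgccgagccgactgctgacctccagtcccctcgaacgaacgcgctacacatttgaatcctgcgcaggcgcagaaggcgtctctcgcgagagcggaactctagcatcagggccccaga
Mrpl9 (chr3:94443216-94443335, plus strand): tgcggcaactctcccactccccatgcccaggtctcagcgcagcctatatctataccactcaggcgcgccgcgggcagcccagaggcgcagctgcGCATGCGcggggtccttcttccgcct
Mrpl34 (chr8:71464806-71464925, plus strand): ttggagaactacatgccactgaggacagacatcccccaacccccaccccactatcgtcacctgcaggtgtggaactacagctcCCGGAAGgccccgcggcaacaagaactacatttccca
Mrpl22 (chr11:58171544-58171663, plus strand): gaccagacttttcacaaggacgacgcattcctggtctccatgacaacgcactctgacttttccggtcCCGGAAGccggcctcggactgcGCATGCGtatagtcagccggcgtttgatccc
Mrpl27 (chr11:94653671-94653790, plus strand): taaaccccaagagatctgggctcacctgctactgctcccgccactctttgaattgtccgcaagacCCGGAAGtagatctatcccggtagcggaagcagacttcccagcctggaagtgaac
Mrpl43 (chr19:45006443-45006562, minus strand): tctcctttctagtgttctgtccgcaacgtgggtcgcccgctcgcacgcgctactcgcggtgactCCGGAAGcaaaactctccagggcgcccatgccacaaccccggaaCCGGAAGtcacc
The ETS core began 37 bases before the start in Mrpl34, 53 in Mrpl22 and 55 in Mrpl27, and lay at 56 and 12 bases in Mrpl43. Members with an ETS core had a median of 40.4 CPM (26 genes, 3.5 to 180 CPM). Those without it had a median of 24.3 CPM (43 genes, 0.44 to 665 CPM). These values are not divided by length, and on that scale the highest members were among those without the core. Per kilobase the order was mixed. Mrpl34, with the core, stood at 296 CPM per kilobase. It lay below Mrpl41 (436) and Mrpl40 (317) and above Mrpl9 (283), Mrpl42 (253) and Mrps14 (222), all without the core.

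The comparison of the groups asked whether the RNA of any of these genes differed 10 hours after injection of the Polq-directed CasRX. No member passed the edgeR quasi-likelihood test at an adjusted p of 0.05, and none of the 13146 genes did (0%). DESeq2, a second count model, called no member either, against 0.154% of the genes it tested. At an unadjusted edgeR p under 0.05 there were 5 members of 74, against 2.81% of all genes. Of these, 3 were higher in the knockdown-labelled libraries (1.1% of all genes) and 2 lower (1.71%). In 3 members the 4 control and 4 knockdown-labelled libraries did not overlap, against 2.98% of all genes. Fitted log2 fold changes, knockdown-labelled minus control, were below 0 for 43 members and above 0 for 31, and 53.4% of all genes were below 0. Their median was -0.05 in the large subunit (19 above 0, 28 below) and -0.11 in the small subunit (12 above, 15 below), beside -0.05 for all genes. Both medians take either sign with a library left out, and both were above 0 with limma-voom (0.13 and 0.14, all genes 0.05).

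**Figure D2:**
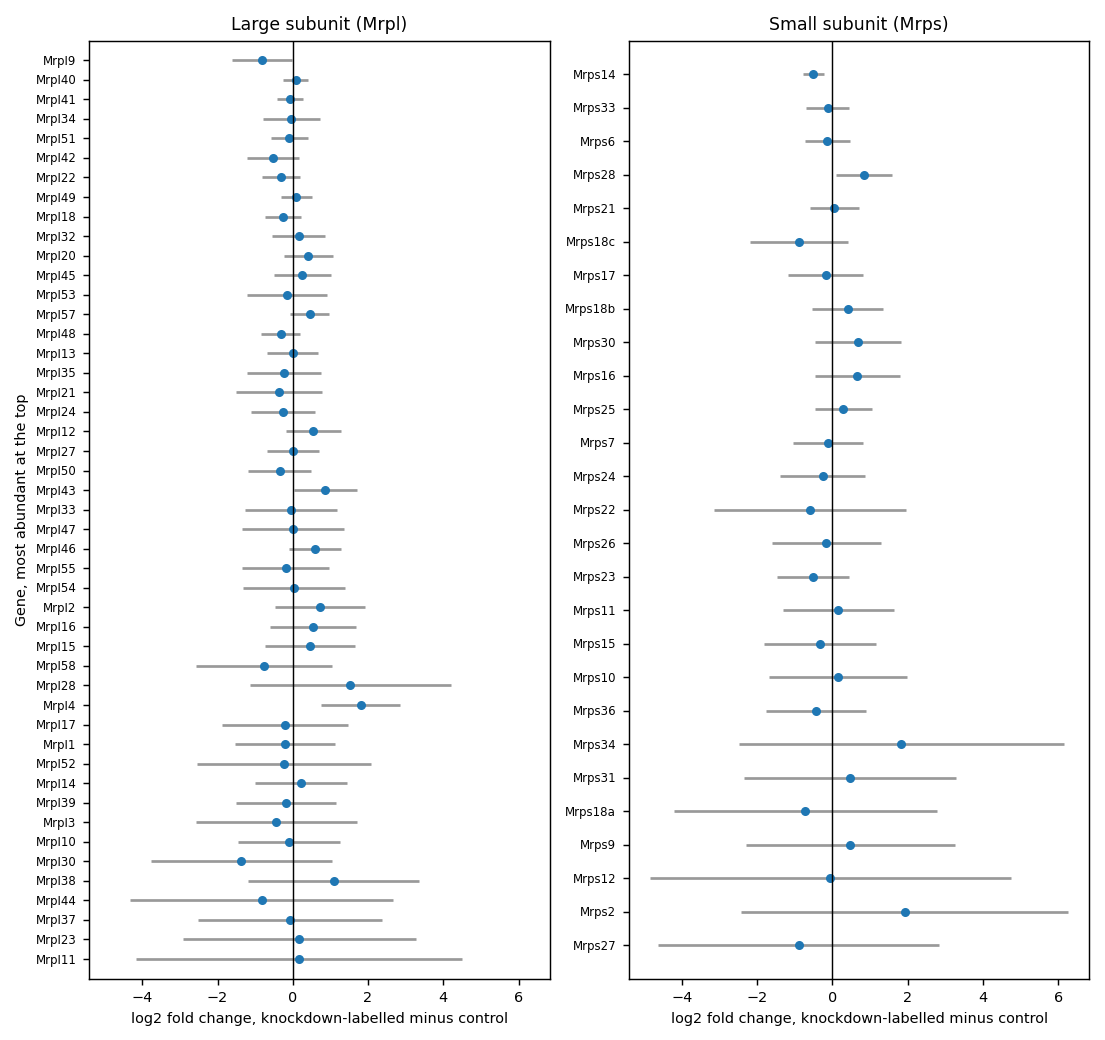
Log2 fold change, knockdown-labelled minus control, of the 47 large-subunit and 27 small-subunit genes tested, most abundant at the top, with points for the edgeR estimate and bars for its 95% interval. Bars clear of 0 belong to Mrps14, Mrpl4, Mrps28, Mrpl43 and Mrpl9, none of which passed after adjustment.

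Mrps14 (chr1:160195215-160202170, plus strand, no annotated overlapping gene) had the smallest p of all members. It read 770, 844, 716 and 793 CPM in the controls and 566, 518, 530 and 584 CPM under the knockdown label. Every knockdown-labelled library lay below every control, a pattern that 1.54% of all genes showed in that direction. The means were 781 ± 53.1 and 549 ± 30.9 CPM (SD, n = 4 each), a log2 fold change of -0.51 (SE 0.13), or 70.4% of control with a 95% interval of 57.9% to 85.5%. The unadjusted p was 0.0024 and the adjusted p 1.0 with edgeR, and the adjusted p was 0.0856 with DESeq2. Leaving out each library in turn kept the estimate between -0.55 and -0.46. Against all 4 controls, knockdown-labelled replicate 4 alone, the library of control-like depth, gave -0.41, and with all libraries thinned to the smallest total it was -0.46.

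Mrpl4, a large-subunit protein that lines part of the exit tunnel (chr9:21002738-21008839, plus strand), read 8.07, 4.91, 5.70 and 6.89 CPM in the controls and 16.5, 39, 15.8 and 18 CPM under the knockdown label. The lowest knockdown-labelled library was above the highest control, which held for 1.44% of all genes in that direction, and replicate 2 stood apart above the other knockdown-labelled libraries. The log2 fold change was 1.80 (SE 0.47, edgeR unadjusted p = 0.0033, adjusted p = 1.0, DESeq2 adjusted p = 0.092). It was 1.40 without knockdown-labelled replicate 2 and 1.5 with replicate 4 as the only knockdown-labelled library.

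Mrpl57, a small protein of the large subunit found only in mitochondria (chr14:57826234-57829296, plus strand), was the other member with groups apart in the higher direction. Its controls read 59.4, 40.4, 59.9 and 61.8 CPM and its knockdown-labelled libraries 64.3, 82.9, 66.3 and 87.8 CPM. The gap between the groups was narrow, from 61.8 to 64.3 CPM, and the 95% interval of the fold change included no change (log2 0.44, SE 0.23, 94.8% to 195% of control).

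**Figure D3:**
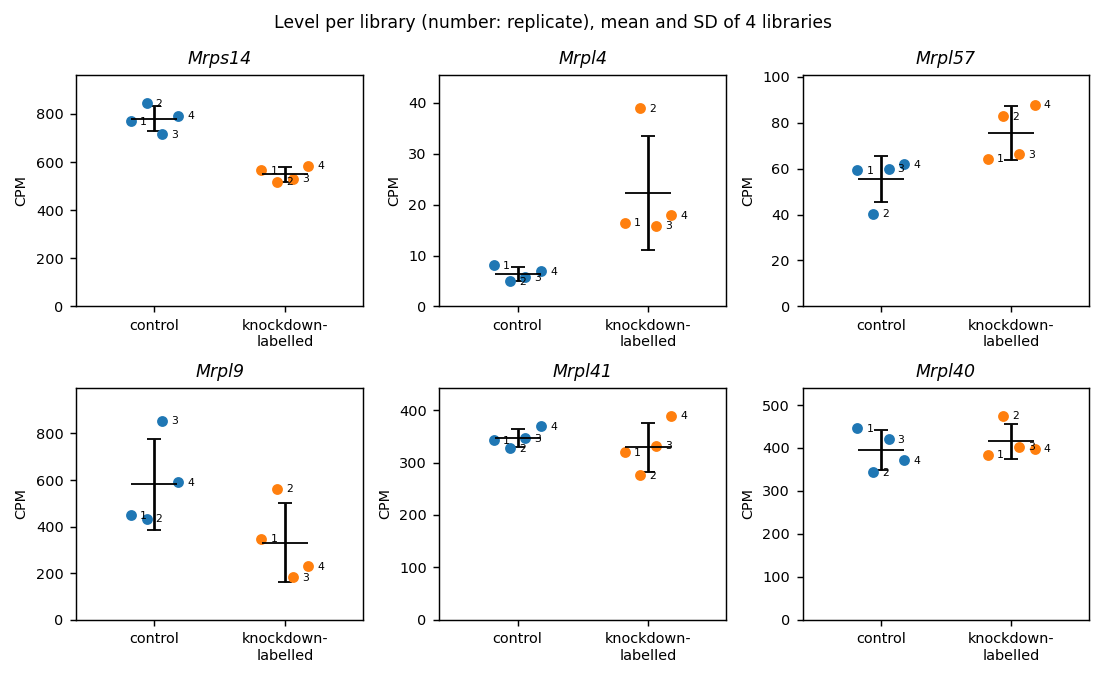
CPM in each library of 6 members, with the replicate number beside each point, controls in blue, knockdown-labelled libraries in orange, and bars for the mean and SD of 4 libraries. Groups are apart in Mrps14 (716 to 844 against 518 to 584 CPM), Mrpl4 and Mrpl57, and overlap in Mrpl9, Mrpl41 and Mrpl40.

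Another 3 members had an unadjusted p under 0.05 with overlapping groups. Mrps28, the counterpart of bacterial S1, read 30.1, 26.1, 51.0 and 56.3 CPM in the controls and 47.8, 97.8, 71.4 and 77.1 CPM under the knockdown label (log2 0.85, SE 0.33). Mrpl43, a mitochondria-specific protein of the large subunit, read 38.7, 21.4, 22.6 and 34.0 CPM against 28.8, 39.9, 64.0 and 79.8 CPM (log2 0.87, SE 0.38). Mrpl43 overlaps Twnk, the gene of the mitochondrial DNA helicase, on the other strand. With the strand setting unknown, reads of the stretch they share cannot be assigned. Mrpl9, a large-subunit protein with a bacterial counterpart, read 448, 434, 855 and 592 CPM in the controls and 348, 563, 182 and 231 CPM under the knockdown label (log2 -0.81, SE 0.36). Its log2 fold change was -0.57 without control replicate 3, the highest library, and its unadjusted edgeR p ran from 0.00472 to 0.147 with each library left out in turn. It was above 0.05 without control replicate 3 or 4 or knockdown-labelled replicate 1, 3 or 4. Mrpl9 overlaps Oaz3 on the other strand, and Mrps28 overlaps Gm15467 on the other strand and Gm15466 on its own. The other 2 genes were no firmer: leaving out each library in turn, the unadjusted edgeR p ran from 0.0145 to 0.158 for Mrpl43, whose log2 fold change was 0.60 without knockdown-labelled replicate 4, and from 0.015 to 0.0865 for Mrps28.

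In the other most abundant members the groups overlapped, in Mrpl42 only in part. Mrpl41 read 342, 328, 347 and 370 CPM in the controls and 320, 276, 333 and 390 CPM under the knockdown label, at 95% of control (75.1% to 120%). Mrpl40 read 446, 343, 420 and 372 CPM against 385, 476, 403 and 398 CPM, at 105% of control (83.4% to 133%). These intervals bound the difference of both genes, although they do not show that it is 0. Mrpl34, which is encoded in a very short mRNA, spread more, with 248, 164, 151 and 165 CPM against 74.0, 228, 173 and 234 CPM. Mrpl51 stood at 182 ± 26 and 171 ± 44.5 CPM (SD, n = 4 each), and Mrpl49 at 138 ± 19 and 147 ± 18.6 CPM. Mrpl42 was at 198 ± 39.1 and 138 ± 59.4 CPM, with knockdown-labelled replicates 1 and 2 at 82.9 and 90.2 CPM below all controls and replicates 3 and 4 at 192 and 186 CPM within them. In the small subunit Mrps33 stood at 94.8 ± 14.5 and 86.7 ± 24.3 CPM, Mrps6 at 85.8 ± 31.1 and 78.1 ± 12.3 CPM, and Mrps21 at 55.4 ± 20.7 and 57.4 ± 3.56 CPM.

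Over the 74 genes tested, 50 had a fitted change of less than 0.5 and 68 of less than 1 on the log2 scale. The 5 at 1 or more were Mrpl4, Mrps2, Mrps34, Mrpl28 and Mrpl38, and Mrpl30 alone was at -1 or less. These were low genes, Mrpl4 included, with a mean of 6.39 CPM in its controls. All but Mrpl4 were uneven already between controls, and their groups overlapped. Mrpl28, for instance, read 11.4, 3.24, 0.0457 and 15.6 CPM in the controls and 7.73, 19.1, 6.47 and 53.5 CPM under the knockdown label. For 16 members the 95% interval lay within 2-fold either way, and for the other members tested a 2-fold difference in at least 1 direction was within the interval.

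By role, the stalk that recruits translation factors showed a median log2 fold change of 0.16 over the 3 listed genes, 2 above and 1 below 0. Mrpl12, the stalk protein present in several copies per ribosome, read 51.5, 43.4, 19.5 and 45.3 CPM in the controls and 55.7, 56.6, 73.0 and 48.2 CPM under the knockdown label. Only control replicate 1 reached into the knockdown-labelled range (log2 0.55, SE 0.32). Mrpl10, the anchor of the stalk, stood at 8.69 ± 3.29 and 8.06 ± 4 CPM, and Mrpl11 at 1.74 ± 2.14 and 1.95 ± 1.71 CPM.

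Around the exit tunnel, where the nascent chain leaves towards the inner membrane, the median over the 6 listed genes was -0.10 (2 above, 4 below 0). Mrpl4, at 1.80, was not on that list, and with it 3 genes were above and 4 below 0 (median -0.0035). Mrpl22 read 190, 165, 196 and 137 CPM in the controls and 137, 95.6, 184 and 138 CPM under the knockdown label (log2 -0.31, SE 0.23), with overlap. Mrpl45, which tethers the large subunit to the inner membrane, stood at 76.1 ± 26 and 90.9 ± 32.3 CPM, and Mrpl24 at 54.0 ± 21.9 and 45.4 ± 13.3 CPM. Mrpl47 showed 63.7, 16.7, 23.3 and 42.8 CPM against 16.5, 20.7, 22.9 and 85.5 CPM, a spread within each group larger than the difference of the means (36.6 and 36.4 CPM). Mrpl17 and Mrpl23 were lower, at 15.2 ± 9.07 and 13.1 ± 11.7 CPM and at 5.16 ± 5.23 and 5.78 ± 3.26 CPM.

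The central protuberance, which in mitochondria has lost its 5S rRNA and gained proteins, had a median of -0.10 over the 6 listed genes, 3 above and 3 below 0. The sum of the listed genes was 668, 627, 630 and 622 CPM in the controls and 580, 731, 611 and 616 CPM under the knockdown label, so the controls lay inside the knockdown-labelled range. Mrpl18 stood at 116 ± 7.49 and 97.0 ± 21.5 CPM and Mrpl48 at 72.4 ± 16.2 and 57.7 ± 6.88 CPM. Mrpl46 lay the other way, at 28.9 ± 7.63 and 43.5 ± 11.2 CPM (log2 0.59, SE 0.31), and its controls reached 40.3 CPM against a lowest knockdown-labelled value of 30.3 CPM. Mrpl58, a peptidyl-tRNA hydrolase that became a structural protein, read 11.8, 27.8, 13.2 and 23.1 CPM against 1.19, 9.36, 29.6 and 4.42 CPM. Mrpl38 ranged from 0.652 to 11.9 CPM in the controls and from 1.39 to 18.2 CPM under the knockdown label.

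The 5 listed genes of the small-subunit head, a chosen list rather than all its proteins, had a median of -0.11 (2 above, 3 below 0). Their sum was 851, 896, 787 and 858 CPM in the controls and 615, 581, 594 and 662 CPM under the knockdown label, and Mrps14 supplied most of it. Mrps7 stood at 28.9 ± 6.36 and 26.7 ± 15.8 CPM, Mrps24 at 25.1 ± 12.5 and 20.9 ± 11.1, Mrps10 at 9.63 ± 5.94 and 10.7 ± 7.02, and Mrps9 at 3.48 ± 2.78 and 4.83 ± 3.60 CPM. Each of these 4 overlapped between groups.

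Mrps18a, Mrps18b and Mrps18c are paralogues of bacterial S18. In solved structures Mrps18a sits in the large subunit, as does Mrps30 despite its name. Mrps18c read 110, 39.1, 51 and 92 CPM in the controls and 24.4, 9.11, 74.2 and 49.4 CPM under the knockdown label (log2 -0.89, SE 0.58), with overlap. Mrps18b stood at 34.1 ± 14.3 and 45.1 ± 20.9 CPM, and Mrps18a read 16.2, 0.0945, 0.892 and 9.24 CPM against 2.38, 0, 7.28 and 6.27 CPM. Mrps30 stood at 22.7 ± 14.4 and 36.4 ± 13.5 CPM, and Mrps16, of the small subunit's body, at 22.8 ± 10.9 and 36.0 ± 21.2 CPM. Mrps23, a mitochondria-specific protein, was at 25.3 ± 8.01 and 17.7 ± 8.45 CPM. Mrps36, now known as a component of the 2-oxoglutarate dehydrogenase complex, was at 10.1 ± 3.87 and 7.47 ± 2.85 CPM.

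Proteins with a bacterial homologue and proteins found only in mitochondria were compared as lists. The 44 tested genes of the first kind had a median log2 fold change of -0.02 (19 above, 25 below 0), and the 28 of the second kind a median of -0.08 (12 above, 16 below), beside -0.05 for all genes. Spread between controls was smaller in the mitochondria-specific list, with a median coefficient of variation (CV, SD over mean) of 32.1% against 47.7%, at like median levels of 28.8 and 28.6 CPM. No test was made of that difference.

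Members were less scattered between control libraries than the average gene, with a median CV of 39.1% against 57.0%, and they were also more abundant. Read within classes of level, the medians came closer. Under 10 CPM the median CV was 82.4% for members and 84.2% for all genes, from 10 to 30 CPM 49.2% and 47.7%, from 30 to 100 CPM 36.8% and 33.0%, and at 100 CPM or more 14.0% (10 members) and 21.9% (1303 genes). The lowest values belonged to Mrpl41, with controls of 328 to 370 CPM, Mrpl18, with 106 to 122 CPM, and Mrps14. The highest belonged to low members such as Mrps34, with 0.0306, 0.158, 0 and 14.1 CPM in the controls and 6.94, 3.40, 0.924 and 39.4 CPM under the knockdown label. Mrps2, a bacterial-type small-subunit protein, was alike in kind, at 0.0917, 0.0630, 0 and 6.10 CPM against 3.77, 0.121, 5.66 and 14.1 CPM. Mrpl3 had 0.734, 27.1, 5.67 and 5.40 CPM against 7.34, 3.16, 5.78 and 12.4 CPM.

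**Figure D4:**
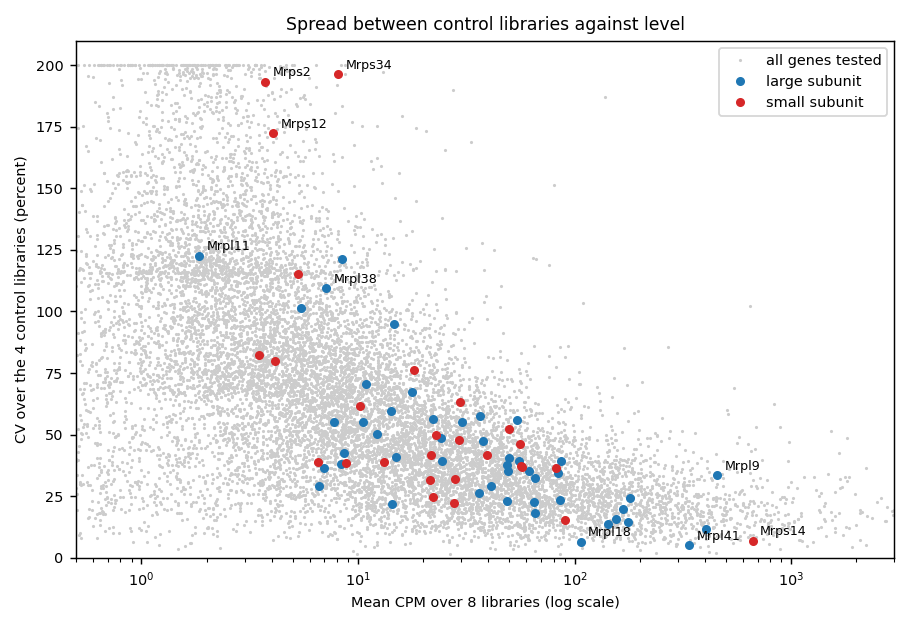
Coefficient of variation over the 4 control libraries, in percent, against mean CPM over 8 libraries on a log scale, for all genes tested (grey), large-subunit members (blue) and small-subunit members (red). Members follow the fall of the cloud, from Mrps34 and Mrps2 near the top at low levels to Mrpl41 and Mrps14 at the bottom, and Mrpl9 stands high for its level at 33.5%.

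Some members were absent from single pools and well represented in others. With 0 counts in at least 1 library and at least 100 in another, 12 members showed this, 10 of which were among the 74 tested, and 24.1% of all tested genes did so. Mrps22, a small-subunit protein, held 0 counts in knockdown-labelled replicate 2 and up to 1639 elsewhere, with 25.9, 23.9, 21.4 and 36.5 CPM in the controls and 16.3, 0, 3.12 and 51.4 CPM under the knockdown label. Mrpl44, a large-subunit protein with an RNase III fold, was at 0 in knockdown-labelled replicates 1 and 4. Replicates 2 and 3 of that group held 4.01 and 15.9 CPM, and the controls 5.08 to 12.3 CPM. Mrps12, a bacterial-type protein at the decoding site, held 0 counts in control replicate 2 and knockdown-labelled replicates 1 and 2, and 647 in control replicate 3. A count of 0 allows up to 3 counts, that is 0.0686 to 0.0945 CPM in the controls and 0.0940 to 0.595 CPM under the knockdown label, for counting error only. The zeros were in both groups: 1, 6, 3 and 4 members were at 0 in the controls and 4, 8, 2 and 3 in the knockdown-labelled libraries. After every library was thinned to the smallest total these became 4, 8, 3 and 6 against 4, 9, 2 and 5, so the counts of absent members overlapped at equal depth too.

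The filter left out 4 members. Mrpl36, a zinc-binding protein of the large subunit (chr13:73328513-73332178, plus strand), held 230, 284, 117 and 1 counts in the controls and 1, 0, 0 and 8 in the knockdown-labelled libraries. Control replicates 1 to 3 were thus high, and control replicate 4 was as low as the knockdown-labelled libraries. With no filter on low counts, the fitted log2 fold change was -5.28 (edgeR unadjusted p = 0.0235, adjusted p = 0.438), and Mrpl36 overlaps Ndufs6, of respiratory complex I, on the other strand. Mrpl19, a bacterial-type protein at the subunit interface, held no count in any control and 0, 25, 38 and 0 in the knockdown-labelled libraries, and with no filter its unadjusted edgeR p was 0.0154, in the higher direction, and its adjusted p 0.438. Mrps35 held 1, 0, 394 and 0 counts against 23, 0, 0 and 182, and Mrps5 1, 0, 92 and 0 against 0, 0, 12 and 0. In each of the last 3, libraries at or near 0 stood in both groups.

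Sums over genes were taken by symbol, so that Mrps18a, Mrps30 and Mrps36 count with the small subunit. The large subunit gave 3595, 3236, 3536 and 3699 CPM in the controls and 2689, 3412, 3171 and 3661 CPM under the knockdown label. Small-subunit sums were 1573, 1408, 1396 and 1630 CPM against 1153, 1127, 1331 and 1493 CPM. Both overlapped, and in both the 2 lowest sums were in shallow libraries and replicate 4 lay within the control range. Mean large-subunit sums were 3516 CPM in the controls and 3233 CPM under the knockdown label, with Mrpl9 alone at 582 and 331 CPM. Mean small-subunit sums were 1502 and 1276 CPM, with Mrps14 alone at 781 and 549 CPM. The lower means thus lay largely in these single genes. The part of depth in these sums was not tested. The ratio of large to small was 2.28, 2.30, 2.53 and 2.27 in the controls and 2.33, 3.03, 2.38 and 2.45 in the knockdown-labelled libraries. Mrps14 alone made up 52.2% ± 5.32 of the small-subunit counts in the controls and 43.5% ± 4.84 in the knockdown-labelled libraries (SD, n = 4 each), and these shares overlapped.

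The other parts of the mitochondrial translation system were read from lists of known genes, and no gene on them passed the edgeR test. Of 5 ribosomal proteins without an Mrp symbol (Dap3, Ptcd3, Chchd1, Aurkaip1 and Gadd45gip1), 3 were above and 2 below 0, with a median log2 fold change of 0.09. Gadd45gip1, which is also the most abundant of them, stood at 84.2 ± 63.5 and 125 ± 31.5 CPM. The 22 of 26 assembly factors and rRNA modifiers that could be tested were 11 above and 11 below 0 (median -0.03). Rpusd4, a pseudouridine synthase of the large rRNA, alone among them had groups apart, in the direction that 1.54% of all genes showed. It read 4.89, 1.36, 1.99 and 3.84 CPM in the controls and 0.793, 0, 0.462 and 0.627 CPM under the knockdown label (log2 -2.67, SE 1.38, edgeR unadjusted p = 0.082). The knockdown-labelled values rest on 4, 0, 4 and 20 counts. Mtg2, a GTPase of ribosome assembly, was uneven at 4.58 ± 6.65 and 0.832 ± 0.264 CPM, and Mettl17, the most abundant assembly factor, stood at 70.7 ± 26.4 and 75.1 ± 4.79 CPM.

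Translation factors (14 of 16 tested) had a median log2 fold change of 0.21, with 8 above and 6 below 0. Lrpprc, which stabilises mitochondrial mRNAs, read 0.153, 12.5, 10.9 and 3.58 CPM in the controls and 0, 0, 1.04 and 0.0627 CPM under the knockdown label (edgeR unadjusted p = 0.0322, adjusted p = 1.0), with control replicate 1 inside the knockdown-labelled range. Gfm1, the elongation factor G of mitochondria, read 2.57, 0, 4.78 and 0 CPM against 3.37, 6.44, 16.2 and 18.6 CPM. Rmnd1, the most abundant of the list, stood at 109 ± 52.8 and 107 ± 50.6 CPM. Of 20 genes for mitochondrial aminoacyl-tRNA synthetases and the related amidotransferase, 11 could be tested, with 7 above and 4 below 0 (median 0.28), and Fars2, the most abundant, stood at 225 ± 41.9 and 192 ± 30.9 CPM. The mitochondrial rRNAs mt-Rnr1 and mt-Rnr2 had log2 fold changes of -0.07 (SE 0.20) and -0.05 (SE 0.22).

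For comparison, 68 of 81 tested genes for cytosolic ribosomal proteins were above 0, with a median of 0.15, and 13 below, where 46.6% of all genes were above 0. Their sums overlapped, at 39130, 25880, 26840 and 31600 CPM in the controls and 27580, 34170, 35670 and 35610 CPM under the knockdown label. Among 76 subunits of the respiratory chain 38 were above and 38 below 0. No gene of either list passed the edgeR test. Counts of the mitochondrial members amounted to 13.2%, 17.9%, 18.4% and 16.9% of those of the cytosolic ribosomal proteins in the controls and to 13.9%, 13.3%, 12.6% and 14.5% in the knockdown-labelled libraries. Control replicate 1 was thus inside the knockdown-labelled range and the other controls above it.

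The members lay on 17 chromosomes, with 11 on chromosome 11 and 8 on chromosome 17. Mrpl46 and Mrps11 are neighbours on chromosome 7 that are transcribed away from each other and overlap by 413 bases at their starts. Their log2 fold changes were 0.59 and 0.15, and with the strand setting unknown reads of the shared stretch cannot be assigned. An annotated gene on the other strand overlapped 36 of the members, and another gene on the same strand 13. Processed copies listed in the table under related symbols held few counts: Mrpl48-ps had 12 to 116 per library, and the other 5 had at most 25. Counts of Mrpl48 and Mrpl23 remain uncertain where reads match a copy, since they were divided by estimation.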

How the data were processed

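RNA of 8 pools of 2-cell embryos was sequenced after TRIzol extraction and NEBNext Ultra RNA library preparation, per the labels. The authors deposited expected counts for each gene without normalisation. The submitters' processing notes list GRCm38 (mm10) as the build and RSEM 1.2.28, STAR 2.7.3a and Trim Galore 0.6.10 as tools. For the annotation release and the strand setting, the sources used here give nothing. By design RSEM shares out reads with several matching genes.

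Here expected counts were rounded (4.22% of values altered) and filtered with filterByExpr by group (minimum count 10, total 15). They were scaled by TMM and tested with edgeR 4.0.16 (R 4.3.3, robust quasi-likelihood, group as the only term, Benjamini-Hochberg over 13146 genes, threshold 0.05). The common biological coefficient of variation was 0.987. No molecular identifiers are mentioned, so counts are not molecules. Replicates are separate pools. The procedure was tested on simulated data. Alternatives were other scalings and filters, DESeq2 1.42.0, limma-voom (limma 3.58.1), a replicate block and leaving out libraries.

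Members and lists were chosen with earlier results of these data known. Members were named if among the 5 most abundant or the 4 with the smallest p per direction in a subunit, with groups apart, with extreme control CVs, untested, or in a role list. Of each pathway list, the most abundant gene was named. Genes with the smallest p were also given for the assembly and translation factors, but not for the synthetases (Rars2 and Hars2). Chchd1, among the smallest p of its list, was named without its values. Others were chosen after their values were seen: Mrpl27, Mrpl28, Mrpl30, Mrpl44, Mrpl49, Mrps12 and Mrps22. Gene positions and lengths are from GENCODE M21, which may not be the release the authors used. Mrpl4, Mrpl13, Mrpl15, Mrpl19, Mrpl38, Mrpl54, Mrps28, Mrps34 and Mrps35 had no promoter entry.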

Additional observations from a re-analysis of the deposited data

Results flagged for a closer look

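In 13 of 148 groups of 4 libraries, 1 library stood apart from the other 3 of its group by Dixon's test at the 95% level, across 12 members. Chance alone flags about 1 group in 20. The library was the high one in 11 of the 13.

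In the controls, Mrps24 was at 43.8 CPM in replicate 1 (others 17.4 to 20.1), Mrpl34 at 248 CPM in replicate 1 (others 151 to 165) and Mrpl46 at 40.3 CPM in replicate 2 (others at most 25.9). Mrpl57 was low in control replicate 2, at 40.4 CPM (others from 59.4), and this is 1 of the members whose groups did not overlap. Control replicate 4 was high in Mrps2 (6.10 CPM, others at most 0.0917), Mrps34 (14.1 CPM, others at most 0.158) and Mrps6 (132 CPM, others 68.5 to 72.9). Control replicate 3 was high in Mrps12, at 14.8 CPM (others at most 1.74).

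Among the knockdown-labelled libraries, replicate 2 was high in Mrpl4, at 39 CPM (others 15.8 to 18), and replicate 3 was low in Mrpl49, at 119 CPM (others from 155). Replicate 4, the deepest of them, was high in Mrpl47 (85.5 CPM, others 16.5 to 22.9), Mrps34 (39.4 CPM, others at most 6.94) and Mrps7 (50.2 CPM, others 16.1 to 20.5).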

How the results depend on the processing

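No member was called under any of the 19 alternatives, and no gene was, except that DESeq2 called 20 genes. The numbers of the replicates did not pair the libraries (same-number correlations -0.075 to 0.0085); with a replicate block no gene was called and the medians were -0.10 (large subunit) and -0.09 (small subunit). Leaving out each library in turn, the large-subunit median was lowest, at -0.24, without replicate 4 of the knockdown-labelled libraries and highest, at 0.09, without their replicate 1, the small-subunit median lay between -0.22 and 0.06 and Polq between -0.47 and -0.11. Of 42 tested members named, 24 kept their sign under all settings, among them Mrps14, Mrpl4, Mrpl57, Mrps28, Mrpl43 and Mrpl9. Another 2 settings, thinning to the smallest total and leaving out the 3 shallow knockdown-labelled libraries, were chosen after seeing the data. Without those 3 the large-subunit median was 0.34 (all genes -0.36) and log2 fold changes reversed for Polq (0.073), Mrpl3 (0.37), Mrpl17 (0.96), Mrpl34 (0.37), Mrpl41 (0.18), Mrpl45 (-0.64), Mrpl47 (1.23), Mrpl51 (0.35), Mrps7 (0.80), Mrps10 (-2.47), Mrps23 (0.24) and Mrps33 (0.13). The lone library left is assumed to vary like the controls. With limma-voom they reversed for Mrpl3 (0.78), Mrpl17 (0.42), Mrpl34 (0.056), Mrpl47 (0.41), Mrpl51 (0.025), Mrps7 (0.15), Mrps10 (-1.01) and Mrps18a (0.072), and with the replicate block for Mrpl3 (0.47). Mrpl47 also changed sign with DESeq2 (0.003), DESeq2 size factors (0.005), a 5 CPM filter (0.009) and upper-quartile scaling (0.015). With a library left out, signs changed for Mrpl3 (-0.85 to 0.87), Mrpl10 (-0.51 to 0.18), Mrpl11 (-0.44 to 1.16), Mrpl17 (-0.98 to 0.24), Mrpl23 (-0.26 to 0.76), Mrpl34 (-0.20 to 0.22), Mrpl41 (-0.17 to 0.012), Mrpl47 (-0.88 to 0.41), Mrpl51 (-0.28 to 0.031), Mrps6 (-0.23 to 0.15), Mrps7 (-0.62 to 0.067), Mrps10 (-0.23 to 0.51), Mrps18a (-1.18 to 0.23), Mrps21 (-0.12 to 0.28), Mrps24 (-0.57 to 0.15) and Mrps33 (-0.23 to 0.069). The cause of these changes was not tested. Members under 10 CPM were the least precise, with a median CV of 82.4% over the controls; the part of depth was not tested.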
